A study of Rattus norvegicus with 6 samples.

Results

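The receptor tyrosine kinase gene Ret, its co-receptor genes Gfra1, Gfra2 and Gfra3, and the ligand gene Gdnf were followed across 6 Affymetrix Rat 230A arrays. Every probe set whose gene symbol in the platform annotation was 1 of these 5 names was taken and kept separate. This gave 8 of the 15866 probe sets analysed, with 3 for Ret, 2 for Gfra1, 2 for Gfra2 and 1 for Gdnf; Gfra3 was not matched to a probe set here. The genes were chosen by name with their log2 signals in control and dexamethasone arrays already known, so their values in this comparison are a description and carry no p-value. The cells were AR42J, a line from a tumour of the rat exocrine pancreas that is used as a model of its enzyme-secreting acinar cells. All cultures started from frozen stocks at passage 29, were plated for 24 h in 20% serum and then kept for 48 h in 5% serum. Control cultures (n = 3) received no dexamethasone and treated cultures (n = 3) received 100 nM dexamethasone, a synthetic glucocorticoid, for those 48 h. The series calls the cultures independent pairs, and the experiment was done 3 times over 5 months in this single line; replicate numbers are not stated to mark the pairs. The comparison asks how the glucocorticoid changed mRNA levels in these cells.

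Ret spans the cell membrane and carries a kinase domain inside the cell. It does not bind its ligands alone: GDNF and its relatives first bind a GFRα co-receptor tethered to the membrane by a lipid anchor, and the complex then brings Ret molecules together and switches on the kinase. GDNF acts mainly with GFRα1, neurturin with GFRα2, artemin with GFRα3 and persephin with GFRα4. The active kinase docks adaptors that feed the MAP kinase, PI3 kinase and phospholipase C gamma routes. The system is best known from enteric neurons, the developing kidney and the C cells of the thyroid.

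The sequences just upstream of Ret and Gfra1 are shown because every probe set of Ret, and 1 of the 2 for its co-receptor Gfra1, had lower signals on all treated arrays than on any control. Among all probe sets tested 27.8% did so, and such separation alone is common here. Each sequence is the 250 bases before the RefSeq start of the gene in the rat assembly GRCr8, read 5′ to 3′ on the gene's own strand. The Ret window lies at chr4:153040557-153040806 on the minus strand and the Gfra1 window at chr1:267555812-267556061 on the minus strand. Capitals mark matches to any of 4 motifs searched on both strands.
Ret: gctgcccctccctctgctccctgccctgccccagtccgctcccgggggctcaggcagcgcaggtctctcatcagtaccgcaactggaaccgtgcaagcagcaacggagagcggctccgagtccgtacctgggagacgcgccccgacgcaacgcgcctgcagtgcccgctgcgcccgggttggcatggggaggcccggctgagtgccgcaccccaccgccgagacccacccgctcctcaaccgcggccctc
Gfra1: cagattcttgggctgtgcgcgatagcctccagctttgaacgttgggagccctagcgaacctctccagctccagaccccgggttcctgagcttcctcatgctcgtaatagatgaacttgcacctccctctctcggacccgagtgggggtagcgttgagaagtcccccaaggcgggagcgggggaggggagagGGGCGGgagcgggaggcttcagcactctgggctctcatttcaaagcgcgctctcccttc

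Both windows were rich in G and C, with 72.8% for Ret and 62.0% for Gfra1 against a median of 51.2% over all 33469 promoter windows. The GC box GGGCGG had 1 match in the Gfra1 window, starting 59 bases before the gene's start, and none in that of Ret. It was present in 30.5% of 33465 windows of the same length without unknown bases. The half-site of the glucocorticoid receptor, AGAACA, was in neither window and in 17.5% of all windows. None of the motifs contains another. The AP-1 motif TGANTCA (6.34% of windows) and the TATA box TATAAA (12.9%) were also in neither. These counts say only which letters are in the windows.

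Values are the deposited MAS5 signals, which are relative to each array's own total. Every array had a mean signal of 500.1 after trimming, so a change in total RNA per cell would not be seen, and fewer cells with a transcript and less of it per cell cannot be told apart. The brightest of 27 control probe sets for genes of a bacterium gave each array its background level. It was 51.7 to 97.3 on control arrays and 83.7 to 115.9 on treated arrays, and 68.3% to 79.5% of probe sets lay above it. The ratio of the 3′ to the 5′ actin probe set, a sign of RNA quality, was 1.27 to 1.5 in controls and 1.19 to 1.69 with dexamethasone. Log2 changes are dexamethasone minus control, with the SE from limma in a fit with replicate number as a block. Of 9520 probe sets bright enough to test, limma called 15.9% higher and 21.2% lower at an adjusted p of 0.05, together 37.1%. The split moved with scaling, from 1512 higher and 2019 lower to 2037 and 1503 with arrays centred on their 75th percentile and 778 and 3257 with scaling to the hybridization controls. The number of arrays limits the precision.

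Ret mRNA was abundant in control cultures and far lower with dexamethasone on each of its 3 probe sets. On probe set 1370989_at the control signals were 1535, 1484.5 and 1628 and the treated signals were 263.8, 138.2 and 86.8, in the order of replicates 1 to 3. All treated arrays lay well below all controls. The group means were 1549 ± 72.8 and 162.9 ± 91.1 (SD, n = 3), a log2 change of -3.40 ± 0.27 (SE). In geometric mean the treated signal was 9.48% of the control signal. Among all probe sets tested, 27.8% had groups that did not overlap with every treated array lower, so the lack of overlap alone is common here.

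The second Ret probe set, 1371112_at, read 1471, 1430 and 1392 in controls and 151.7, 132.9 and 77.4 with dexamethasone. Again all treated arrays lay well below all controls. The coefficient of variation was 2.74% among controls and 32% among treated arrays. Means were 1431 ± 39.3 and 120.7 ± 38.6 (SD, n = 3), a log2 change of -3.62 ± 0.20, or 8.11% of the control signal. On both of these probe sets the signals of dexamethasone 1 and 2 were above the array's background level, and that of dexamethasone 3 was not.

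The third, 1388208_a_at, whose suffix marks a probe set shared by several transcripts of a gene, had no measurable treated signal. It read 1743, 1183 and 1441 in controls and 62.3, 14.9 and 12.6 with dexamethasone. No treated array was above background on it, so only a bound can be given: the control signal was at least 14.5-fold higher than the background level of the treated arrays. No fitted change is given for it, since that would rest on signals under the background level. The platform annotation names the same source sequence for this probe set and 1371112_at, and a different one for 1370989_at.

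Folds are given by replicate number, though the numbers are not stated to mark the pairs. Numbers 1 and 2 differed on 1370989_at and were close on 1371112_at, and number 3 gives only bounds. On 1370989_at the treated signal was 5.82-fold and 10.7-fold lower than that of the control with the same number for numbers 1 and 2, and at least 14-fold lower for number 3, where the treated signal was under background. On 1371112_at these values were 9.69-fold, 10.8-fold and at least 12-fold. On 1388208_a_at they were at least 17.4-fold, 14.1-fold and 12.4-fold, which gives no order. On 1370989_at and 1371112_at dexamethasone 3 had the lowest signal, and it also had the highest background level of the 6 arrays. The part of that background in the result was not tested. All 3 Ret probe sets reached the mean signal needed for testing only through their control arrays.

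**Figure D1:**
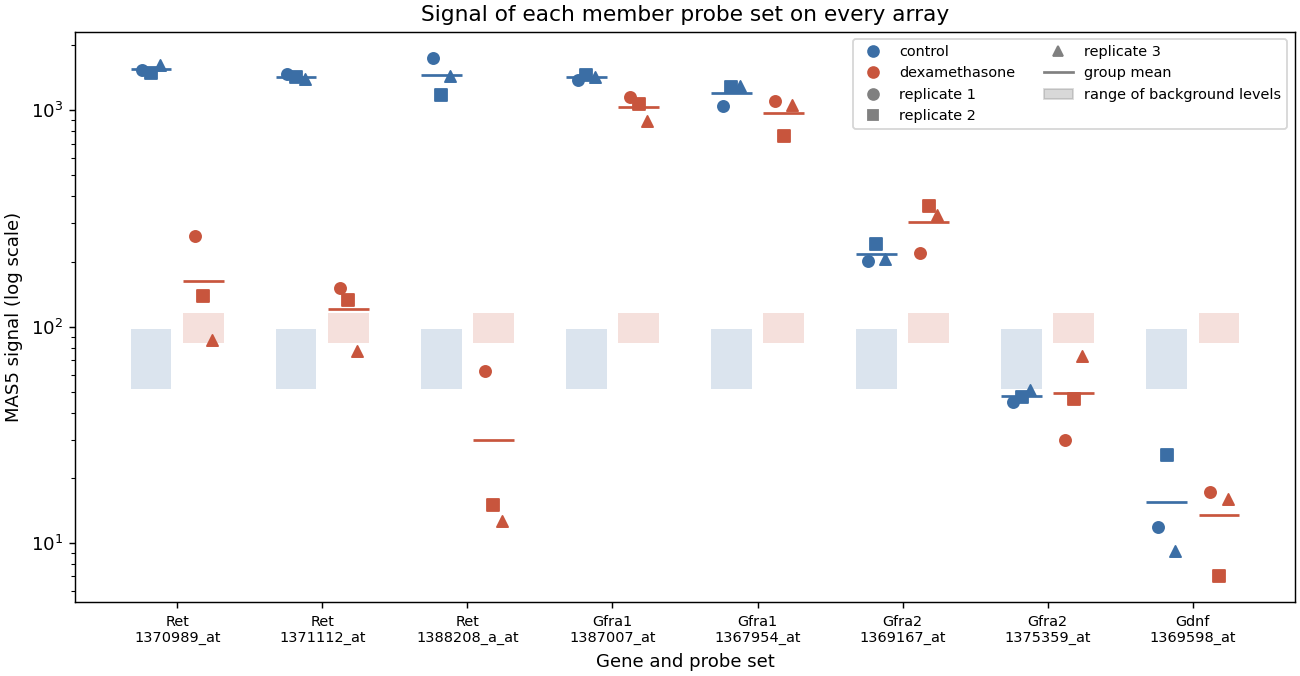
MAS5 signal (log scale) of the 8 probe sets of Ret, Gfra1, Gfra2 and Gdnf on each of the 6 arrays; blue is control, red is dexamethasone, symbols give the replicate, lines the group mean, and shaded bands the range of background levels in that group. The Ret controls lie between 1183 and 1743 and the treated arrays between 12.6 and 263.8, whereas the Gfra1 groups lie close together and Gdnf is under the bands throughout.

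Gfra1, which encodes the co-receptor that presents GDNF to Ret, stayed well above background in every culture and was only modestly lower with dexamethasone. Probe set 1387007_at read 1376, 1461 and 1432 in controls and 1157, 1065 and 889.3 in treated cultures. The groups did not overlap, and dexamethasone 3 was the lowest. Means were 1423 ± 43.1 and 1037 ± 136 (SD, n = 3), a log2 change of -0.46 ± 0.14. Against the control of the same replicate number, treated signals were 1.19-fold, 1.37-fold and 1.61-fold lower.

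The other Gfra1 probe set, 1367954_at, did not separate the groups. It read 1045.5, 1286 and 1292 in controls against 1105.5, 762.1 and 1063 with dexamethasone. Against the control of the same number, treated signals were 1.06-fold higher for number 1 and 1.69-fold and 1.22-fold lower for numbers 2 and 3. The log2 change was -0.32 ± 0.17, and -0.10 without replicate 2. Of all probe sets tested, 21.7% had a lower log2 change than 1387007_at and 29.7% a lower one than 1367954_at. Scaling to the hybridization controls lowers the median of all probe sets tested from -0.05 to -0.29. With it the log2 changes of these Gfra1 probe sets were -0.71 and -0.57. With arrays centred on their 75th percentile they were -0.34 and -0.195.

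Gfra2, the preferred co-receptor of neurturin, was dimmer. On 1369167_at the controls read 200.8, 241.9 and 204.5 and the treated arrays 219.0, 362.6 and 328.3. All 6 values were above background and the groups overlapped, since dexamethasone 1 lay below control 2. Means were 215.7 ± 22.7 and 303.3 ± 75 (SD, n = 3), a log2 change of 0.46 ± 0.19. Against the control of the same replicate number, treated signals were 1.09-fold, 1.5-fold and 1.61-fold higher. With scaling to the hybridization controls the log2 change was 0.22, and with arrays centred on their 75th percentile 0.59. The second Gfra2 probe set, 1375359_at, was not above background on any array, with signals of 44.9 to 50.7 in controls and 29.8 to 72.8 with dexamethasone. It gives no direction.

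Gdnf, the ligand, was not above background on any array. Its single probe set, 1369598_at, read 11.9, 25.5 and 9.20 in controls and 17.2, 7.0 and 16.0 in treated cultures. The groups overlapped, and no fold is given because both lay under the background level.

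**Figure D2:**
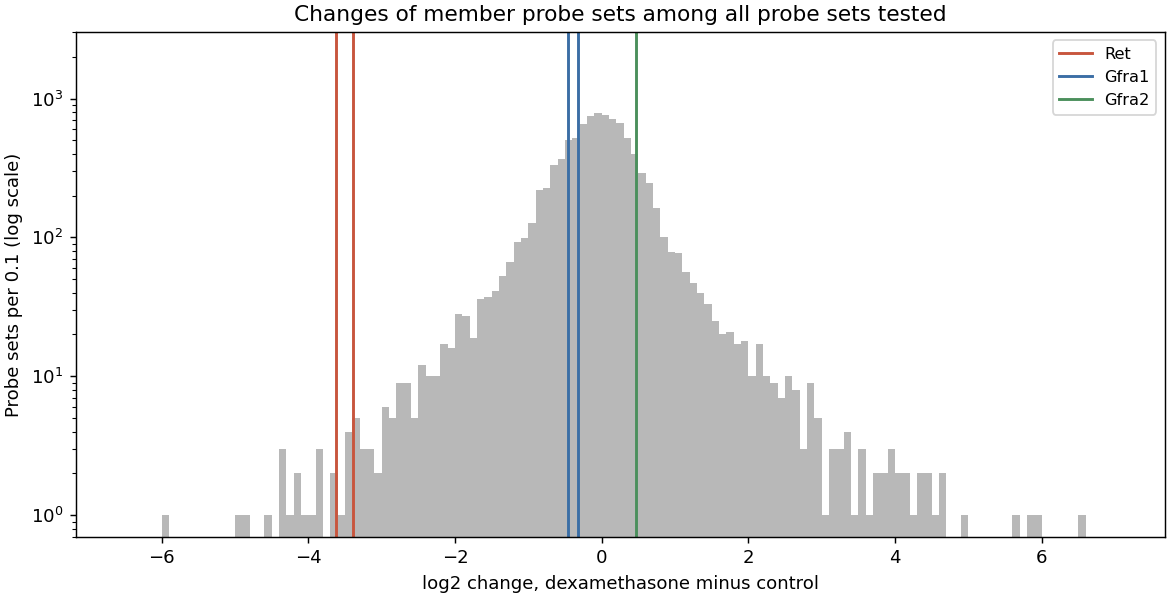
Histogram (log scale) of the log2 change, dexamethasone minus control, of the 9520 probe sets tested, in steps of 0.1, with vertical lines at 5 tested probe sets of Ret (red), Gfra1 (blue) and Gfra2 (green); Ret 1388208_a_at has no line because no treated array was above background on it. The Ret lines stand in the left tail at -3.40 and -3.62, with 1 of 3 treated arrays under background on each, and those of Gfra1 and Gfra2 lie within the bulk of the distribution, between -0.46 and 0.46.

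By the shape of their profile over the 6 arrays, the named probe sets nearest to Ret on 1370989_at were Ppp2r2b (a regulatory subunit of protein phosphatase 2A), Nt5dc2, Ezh2 (a histone methyltransferase), Guca2b (uroguanylin) and Prim1 (a DNA primase subunit). Likeness was the Euclidean distance between log2 signals, each centred on its own mean, and these lay at 0.65, 0.76, 0.95, 0.96 and 1.05. For comparison, 1371112_at, the second probe set of Ret itself, lay at 0.65 from 1370989_at. Nearest to 1371112_at were Nt5dc2, Ppp2r2b, Tubb4b, Rcor2 and Mki67, at 0.42 to 0.86. The distances from both of these Ret probe sets rest in part on signals under background. On dexamethasone 3 the Ret probe sets themselves, Nt5dc2, Ezh2, Rcor2 and Mki67 lay under it. Rcor2 did so on every treated array, and Mki67 also on dexamethasone 1. The profiles nearest to 1388208_a_at lay at 1.88 to 2.84, a distance that rests on treated signals under background, and belonged to Mcm6, Cdk1, Dnmt1, Pclaf and Agtr2. Gfra1 on 1387007_at was closest to Ddb1, Ing4, Psma5, Ppil3 and Cops6, at 0.04 to 0.12. Pearson r with the member was 0.970 to 0.998 for all of these over the 6 arrays, which the difference between the groups dominates.

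Among other ligands and receptors of the GDNF family and its alternative receptors, 5 of 8 genes on the array were bright enough to test. By limma 1 rose, 1 fell and 3 did not pass, a median log2 change of -0.01 against -0.05 for all probe sets tested. Over 7051 genes, 38.4% passed, 21.4% lower and 17% higher. Gdf15, a distant family member that signals through Ret with another co-receptor, rose from 156.0 ± 3.09 to 263.7 ± 27.3 (log2 change 0.75 ± 0.19, limma adjusted p = 0.0149). The call was lost with scaling to the hybridization controls and without replicate 1 or replicate 2. Sorl1, a sorting receptor that takes up GDNF with GFRα1, fell from 1866 ± 48.7 to 1246 ± 70.7 (-0.58 ± 0.12, limma adjusted p = 0.00493). Of its other bright probe sets, 2 fell and 1377458_at did not pass (-0.07 ± 0.13, limma adjusted p = 0.724). Nrtn, which encodes neurturin, had signals of 469.9 ± 44.3 and 484.3 ± 155, and Pspn, persephin, 383.5 ± 145 and 370.2 ± 101; neither passed.

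Ncam1, an alternative receptor for GDNF and GFRα1 that can act without Ret, was too dim on average to be tested and is named after its values were seen. Its brighter probe set read 208.8, 287.4 and 213.8 in controls and 85.4, 24.1 and 72.4 with dexamethasone. All controls and no treated array were above background, so the control signal was at least 2.36-fold higher. No fitted change is given, since it would rest on treated signals under the background level. On its other probe set, 1377368_at, Ncam1 read 83.3, 100.1 and 19.6 in controls and 81.4, 119.2 and 139.7 with dexamethasone, so the groups overlapped and gave no such difference. Gfra4, the persephin co-receptor, was above background on 1 control array and on no treated array.

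Of the adaptors and kinases that Ret uses, 30 of 37 genes on the array were tested: 9 fell, 1 rose and 20 did not pass, a median log2 change of -0.19. The share called was 33.3%, near the 38.4% of all genes tested. Lower calls outnumbered higher ones in every setting, but the split moved with scaling. It was 7 lower and 5 higher with arrays centred on their 75th percentile. With quantile normalization it was 8 and 3, and with scaling to the hybridization controls 14 and 0. Src, a cytoplasmic tyrosine kinase, fell from 412.5 ± 49.8 to 127.2 ± 44.2 (-1.75 ± 0.26, limma adjusted p = 0.000877). Of its other probe sets, 1389030_a_at also fell, 1368830_at did not pass (-0.44 ± 0.22) and 1387352_at was not above background. On each Src probe set that fell, 2 of 3 treated arrays were above background. Those Src probe sets reached the mean signal needed for testing only through their control arrays. Cbl, the ubiquitin ligase that marks active Ret for degradation, fell from 739.6 ± 61.0 to 274.9 ± 9.28 (-1.43 ± 0.15, limma adjusted p = 0.000127), and its other probe set by 1.10. Akt1, a kinase of the PI3 kinase route, fell from 2021 ± 252 to 943.4 ± 153 (-1.10 ± 0.15). Its probe set 1368862_at also fell, but 1375178_at did not pass and lay the other way (0.30 ± 0.18, limma adjusted p = 0.228).

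The riser among the adaptors and kinases was Ptprj, a receptor phosphatase, from 165.7 ± 53.6 to 271.6 ± 63.4 (0.74 ± 0.24, limma adjusted p = 0.0407). Its groups overlapped, and its call was lost with no replicate block (limma adjusted p = 0.0595), without replicate 2, with no filter and with scaling to the hybridization controls. The core adaptors Grb2 (-0.26 ± 0.12) and Gab1 (-0.22 ± 0.16) did not pass. Plcg1, the phospholipase that docks on Ret, fell by 0.77 on the log2 scale.

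The list of genes that respond to Ret or to ERK signalling, the MAP kinase route downstream of it, had 8 tested genes, of which 2 rose, 2 fell and 4 did not pass, a median log2 change of 0.05. This is 50% called, from few genes, against 38.4% of all genes tested (21.4% lower, 17% higher). Dusp6, a phosphatase that restrains ERK and is itself induced by it, fell from 909.9 ± 107 to 568.1 ± 93.0 (-0.69 ± 0.14, limma adjusted p = 0.00592), and its other probe sets fell by 1.40 and 1.20. On those other probe sets 2 of 3 and 1 of 3 treated arrays were above background, so these sizes rest in part on signals under it. Those probe sets also reached the mean signal needed for testing only through their control arrays. Spry1, a feedback inhibitor of receptor tyrosine kinases, rose from 156.9 ± 9.56 to 282.9 ± 12.7 (0.85 ± 0.19, limma adjusted p = 0.00823). Th, tyrosine hydroxylase, rose by 0.99 ± 0.28 and Met, another receptor tyrosine kinase, fell by 0.53. On Th 2 of 3 control arrays were above background, and it reached the mean signal needed for testing only through its treated arrays. Met had overlapping groups and an adjusted p by limma of 0.0494, and its call was lost in 6 of the 10 alternatives that tested it, the fit with no replicate block (limma adjusted p = 0.0726) among them. That of Th was lost in 4. Without replicate 1 or without replicate 2, 2 genes of this list were called instead of 4.

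Phlda1, a gene induced by ERK signalling, was too dim on average to be tested and is named after its values were seen. It went from 359.2 ± 202 in controls, all above background, to 28.5 ± 22.6 with dexamethasone, none above it, at least 3.28-fold lower. Egr1, an immediate early gene of the same route, did not pass (-0.12 ± 0.17). Cxcr4 of this list was also too dim on average to be tested and went the other way from Phlda1. It read 53.1, 58.1 and 70.1 in controls and 87.4, 103.7 and 124.5 with dexamethasone. The signal was above background on 1 control array and 2 treated arrays.

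Transcription factors of the lineages that express Ret gave 0 calls by limma among 7 tested, with 1 gene under an unadjusted p of 0.05, against 38.4% of all genes tested. Another 10 were too dim. Phox2a, a factor of autonomic neurons, read 154.7 ± 10.3 and 156.4 ± 19.8, and Sox10, a factor of neural crest and enteric glia, was not above background on any array. Foxa2, a factor of gut and pancreas epithelium, had signals of 3106 ± 321 and 2424 ± 191 and did not pass (-0.36 ± 0.13, limma adjusted p = 0.0559). Its groups did not overlap, and it passed and was lower without replicate 1 and in 4 other alternatives, among them the fit with no replicate block.

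Of other neurotrophic factors and receptors, 15 of 27 genes on the array were tested: 4 fell, 1 rose and 10 did not pass, a median log2 change of -0.08. The 33.3% called was near the 38.4% of all genes tested, and 1 of the 4 that fell was Met, described above with its lost calls. Ptn, the growth factor pleiotrophin, fell from 2157 ± 571 to 340.4 ± 45.5 (-2.64 ± 0.19, limma adjusted p = 1.3e-05). Fgfr1, a fibroblast growth factor receptor, fell from 997.1 ± 73.5 to 342.0 ± 53.7 (-1.55 ± 0.16) and by 1.69 on its other probe set. Sort1, sortilin, a co-receptor for neurotrophin precursors, fell from 561.7 ± 8.67 to 266.0 ± 91.0 (-1.15 ± 0.22). Its other probe set, 1371004_at, was too dim on average to be tested. There Sort1 read 146.3, 135.4 and 194.1 in controls and 94.3, 135.1 and 126.6 with dexamethasone, a smaller difference. Erbb3, a neuregulin receptor, rose from 117.5 ± 65.9 to 449.9 ± 95.1 (2.11 ± 0.32, limma adjusted p = 0.00115), with 2 of 3 control arrays above background. Erbb3 reached the mean signal needed for testing only through its treated arrays. The receptor tyrosine kinase Kit was named after its values were seen and was too dim on average for the test. It went from 267.1 ± 65.6 to 22.7 ± 3.55, with no treated array above background, at least 2.64-fold lower. Ntf3 of this list was also too dim on average and went the other way. Its signals were 60.3, 68.5 and 22 in controls and 114.1, 109.8 and 137.6 with dexamethasone. They were above background on 1 control array and 3 treated arrays.

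**Figure D3:**
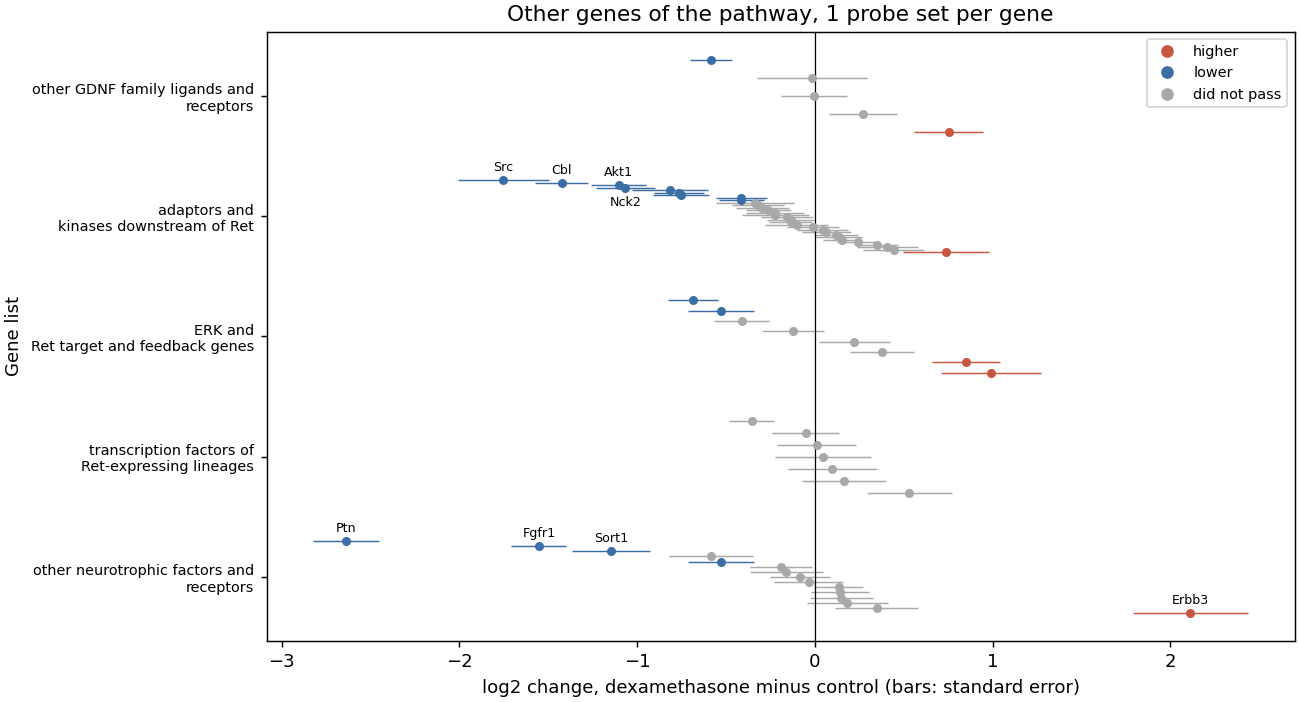
Log2 change, dexamethasone minus control, with its standard error for each tested gene of the 5 lists, 1 probe set per gene; blue points passed and were lower, red passed and were higher, grey did not pass an adjusted p of 0.05 by limma. Src, Cbl, Akt1 and Nck2 fell furthest among the adaptors and kinases, Ptn furthest of all, and Erbb3 rose furthest.

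Markers of the labelled cell type were present: all 12 acinar markers on the array were above background on all 6 arrays, and 9 of 11 tested rose. Beside this and the counts below, limma called 17% of all genes tested higher and 21.4% lower. Of 16 neuroendocrine and neuronal markers, 10 were above background on all control arrays and 11 on all treated arrays, and their summed signal was 14510 to 15074 in controls and 11566 to 16352 with dexamethasone. In that list 1 rose and 4 fell of 8 tested. Uchl1, a neuronal ubiquitin hydrolase, fell from 3207 to 1118 and Chgb, a granin, rose from 2762 to 4092, so changed members moved in both directions. Schwann and enteric glial markers summed to 2879 to 3155 and 2954 to 3737. Of 8 on the array, 5 were above background on all control arrays and 6 on all treated arrays, with Sox10 and Fabp7 on none. Of 4 glial markers tested, 1 rose, which was Erbb3. Fibroblast (756 to 934 and 906 to 1008), immune (393 to 550 and 494 to 700) and endothelial (169 to 253 and 259 to 427) sums were low. Of 8 fibroblast markers, 5 were above background on all control arrays and 5 on all treated arrays. For 7 immune markers these counts were 2 and 1, and for 3 endothelial markers 1 and 1. Lum, Ptprc, Itgam and Kdr were under background throughout. The only endothelial marker tested, Pecam1, rose from 120.7 to 254.6 (limma adjusted p = 0.0143). Pecam1 reached the mean signal needed for testing only through its treated arrays. Duct markers, 3 in number, summed to 2809 to 3930 and 677 to 2049, and both tested members, Krt19 and Krt7, fell (by 1.66 and 0.45 on the log2 scale). The groups of Krt7 overlapped, and its limma adjusted p was 0.0467. The part of these markers in the Ret result was not tested.

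**Figure D4:**
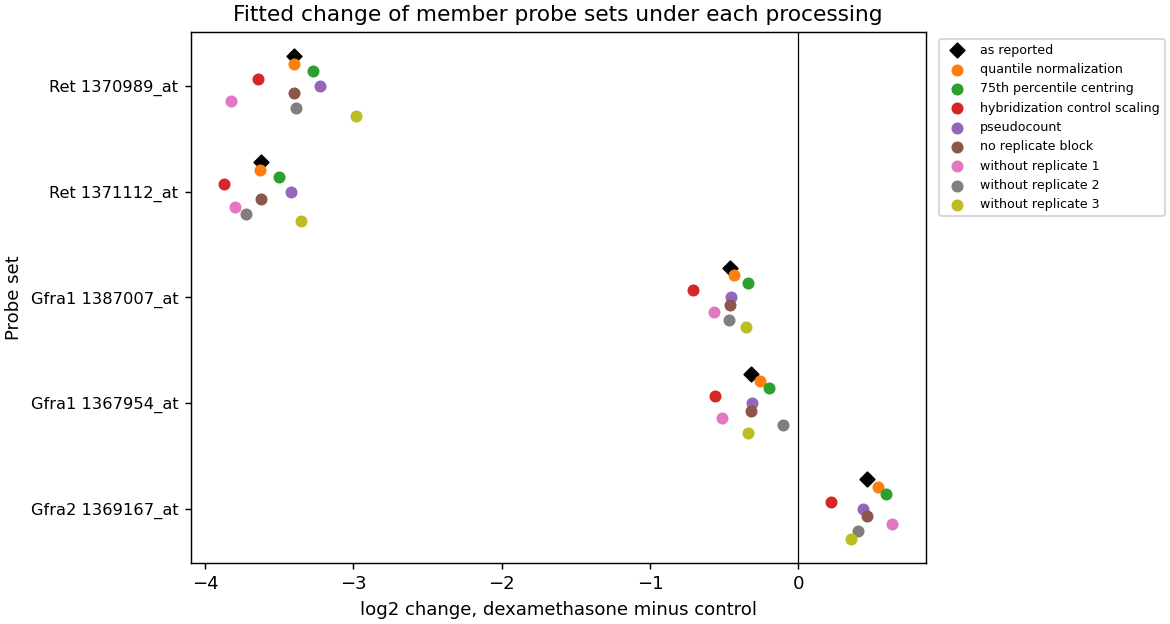
Fitted log2 change, dexamethasone minus control, of 5 tested probe sets as reported (black diamonds) and under 8 alternatives (coloured points); Ret 1388208_a_at, with no treated array above background, is not drawn. The Ret probe sets stay between -3.87 and -2.98 throughout, Gfra1 on 1367954_at ranges from -0.57 to -0.10, and the order of the genes is the same in every setting.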

How the data were processed

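Total RNA from 6 cultures was hybridised to Affymetrix Rat 230A arrays. The authors deposited a linear MAS5 intensity for each probe set on each array. The submitters' processing notes name GCOS and MAS5, and versions and scaling settings are not given in the sources used here. Probe sets were named from GEO's platform annotation: 12783 had 1 symbol, of which 12748 matched the GRCr8 gene table by identifier, 312 had several and 2771 none. After 4 zeros were set to 0.1, signals were taken to log2. The 9520 of 15866 probe sets whose mean reached the 40th percentile (a signal of 147.6) entered a linear model of treatment plus replicate number as a block (limma 3.58.1 under R 4.3.3, variances moderated along an intensity trend) and were adjusted by Benjamini-Hochberg at 0.05. A gene was represented by its brightest probe set; upstream sequences are RefSeq's. A bound compares the brighter group's mean log2 signal with the higher of background level and signal on each array of the dimmer group.

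The series' design text calls the cultures pairs, without saying that the numbers mark them. Deviations from the group mean correlated at -0.10, 0.11 and 0.21 within numbers 1, 2 and 3. P-values cover the spread between these cultures of 1 line. Simulated data for this comparison had 200 of 9520 probe sets changed. On them the fit recovered 91% of changes of 3 on the log2 scale and 37% of changes of 1. In the data 37.1% of probe sets were called, a much larger share, so these recovery rates do not carry over. A gene that did not pass may still have changed. No array's values were held under 2 samples: at most 47 values of a pair of arrays were identical. The members and lists were chosen with earlier results of these data known. Named genes were every member probe set, in each list the 3 largest called rises and falls, and the 5 nearest profiles of each tested member probe set whose groups did not overlap. Other list genes the text names with values fall outside that rule. They are Plcg1, Grb2, Gab1, Egr1, Phox2a, Sox10, Foxa2, Nrtn, Pspn, Gfra4, Ncam1, Phlda1, Cxcr4, Kit, Ntf3 and Nck2. These genes were chosen after their values were seen, as were the marker genes named. Alternatives were quantile normalization, centring on the 75th percentile, scaling to 18 hybridization controls, a pseudocount of 18.6, no block, no filter, a 60th percentile filter, no intensity trend and leaving out each replicate pair.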

Additional observations from a re-analysis of the deposited data

How the results depend on the processing

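The direction of the 6 tested member probe sets was the same under all 8 alternatives run on them, and the fit with no replicate block gave the same changes by construction (Ret on 1370989_at -3.40, SE 0.32 against 0.27). Leaving out replicate pairs moved this Ret change between -3.83 and -2.98, Gfra1 on 1387007_at between -0.57 and -0.35, and Gfra2 on 1369167_at between 0.36 and 0.63. Scaling to the hybridization controls took Gfra1 on 1387007_at to -0.71, in step with the shift of all probe sets. Centring on the 75th percentile took it to -0.34.

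The count of all probe sets called was 3531, and 3542 with no replicate block; 1512 higher and 2019 lower became 2037 and 1503 with 75th percentile centring and 778 and 3257 with hybridization control scaling. Among other GDNF family genes, 2 calls became 1 with hybridization control scaling and with the 60th percentile filter, and 1 to 2 without a replicate. The ERK and Ret target genes had 4 calls, 1 with the stricter filter and 2 to 4 without a replicate. The transcription factors had 0 calls, and 1 (Foxa2, lower) with quantile normalization, hybridization control scaling, no replicate block and the stricter filter, and 0 to 1 without a replicate. The neurotrophic list had 5 calls, 3 with the stricter filter, which tests fewer genes. Other counts stayed within 1.5 times. Of the named list genes, Gdf15 lost its call in 3 alternatives, Ptprj in 4, Th in 4 and Met in 6, and none changed sign. Where no cause is named, it was not tested. Signal over background limits Ret in treated cultures, Gdnf and the second Gfra2 probe set.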
